A study of Mus musculus with 214 samples.

Results

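The liver response to N-nitrosodimethylamine (NDMA) was examined here through 9 genes, Apoa4, Plin2, Plin4, Plin5, Cidec, Cidea, Cd36, Mogat1 and G0s2, which encode a secreted apolipoprotein and proteins that coat, grow, fill or protect lipid droplets. The genes were selected by symbol, and all 9 were listed among the 18647 genes measured in wild-type (WT) mice and the 19540 measured in Mgmt-/- mice. RNA was read by 3′ digital gene expression sequencing of whole liver from 213 mice, each giving 1 library. NDMA is an alkylating agent that hepatocytes activate, and MGMT is the enzyme that removes the methyl group from O6-methylguanine. Exposed pups were injected intraperitoneally with NDMA, first with 3.5 mg/kg at postnatal day 8 and then with 7 mg/kg at postnatal day 15, and controls were given saline on the same days. Livers were collected 1, 2 or 5 days after the second injection, in juvenile mice, or 10 weeks or 10 months after it, in adults. WT mice were RaDR+/+; GPT+/+ and Mgmt-/- mice were RaDR+/+; GPT+/+; Mgmt-/-, both on a C57BL6 background, so that the controls of both genotypes also carried the RaDR recombination reporter and the GPT mutation reporter. Mgmt is deleted throughout the body in this line, and whole liver was used, so no cell type was selected.

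From day 1 to month 10, in time order, 26, 8, 8, 8 and 13 NDMA livers were set against 21, 8, 7, 8 and 10 saline livers in WT mice. In Mgmt-/- mice 12, 8, 8, 8 and 13 NDMA livers were set against 12, 7, 6, 8 and 12 saline livers, after exclusion of 2 saline libraries of day 5. WT libraries held 150038 to 4791649 reads on genes (median 1700411), and Mgmt-/- libraries held 713584 to 7740710. The Mgmt transcript itself was at 13.0 to 130 normalized counts in the 117 WT libraries and at 0 to 9.67 in all 96 Mgmt-/- libraries, each on the scale of its own genotype. The hepatocyte genes Alb, Apoa1, Ttr, Serpina1c and Fgb were expressed in every group.

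Several libraries stood apart before any comparison. In 2 Mgmt-/- saline libraries of day 5 that are labelled liver, Kap, a kidney androgen-regulated gene, reached 6147 and 7562 normalized counts. Kap did not exceed 1.80 in the 6 saline livers kept at day 5, 13.9 in any other Mgmt-/- liver or 9.93 in any WT liver. The 5 hepatocyte markers summed to 2349.5 and 1596 normalized counts in these 2 libraries, against at least 316858 in the 6 saline livers kept, which goes against their label. Both libraries with kidney transcripts were left out by the rule that defined the comparisons, and the results with all libraries are given at the end of the text. In 2 WT NDMA libraries of day 1, the transcripts of Xist and of Y-linked genes went against the labelled sex. Finally, 4 WT NDMA libraries, all female and 1 at each time from day 2 to month 10, held fewer than 300000 reads, and 1 of them (day 2, replicate D215006, 150038 reads) recurs in the results.

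Neutral lipid in hepatocytes is stored in droplets, each with a triglyceride core, a phospholipid monolayer and a coat of proteins. Perilipins, encoded by Plin genes, form much of that coat and limit the access of lipases, and CIDE proteins sit where droplets touch and move lipid from the smaller droplet to the larger one. Fatty acid from outside the cell enters with the help of transporters such as CD36, is esterified by acyltransferases, and leaves either through lipolysis or in lipoproteins that carry apolipoproteins. Many of these genes are known targets of PPAR nuclear receptors, which bind repeats of the half-site AGGTCA together with RXR.

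The members lie on several chromosomes, and 5 overlap another annotated gene. In GRCm38 (GENCODE M21), Apoa4 spans chr9:46240696-46243459 on the plus strand and overlaps Gm10680 and Gm47528 on the other strand. Plin2 spans chr4:86648386-86670060, Plin5 chr17:56111601-56117596, Cidec chr6:113424634-113435760 and Cd36 chr5:17781690-17888801, all on the minus strand. Plin4 (chr17:56100591-56109803, minus) overlaps Hdgfl2, Mogat1 (chr1:78510991-78538173, plus) overlaps BC035947, G0s2 (chr1:193272161-193273217, minus) overlaps Lamb3, and Cidea overlaps B430212C06Rik. Whether counting used the strand is not given in the sources used here, so reads of these overlapping pairs may not be separated.

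The sequence before the start of 4 members is shown because these genes were the members most often called higher after NDMA, and to show where half-sites of nuclear receptors fall in them. Sequences are from RefSeq (GRCm38.p6), run 5′ to 3′ on the strand of the gene, and carry matches to AGGTCA and CCAAT, on either strand, in capitals. The stretch for Plin2 is chr4:86670060-86670309 (minus), that for Cd36 is chr5:17835897-17836146 (minus), which lies inside the longest annotated Cd36 gene, that for Cidec is chr6:113435761-113436010 (minus), and that for Apoa4 is chr9:46240594-46240695 (plus).
Plin2: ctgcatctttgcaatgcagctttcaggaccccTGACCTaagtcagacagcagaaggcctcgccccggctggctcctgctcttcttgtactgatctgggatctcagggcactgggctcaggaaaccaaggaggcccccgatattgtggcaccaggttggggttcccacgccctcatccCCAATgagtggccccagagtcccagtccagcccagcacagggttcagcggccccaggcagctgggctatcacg
Cd36: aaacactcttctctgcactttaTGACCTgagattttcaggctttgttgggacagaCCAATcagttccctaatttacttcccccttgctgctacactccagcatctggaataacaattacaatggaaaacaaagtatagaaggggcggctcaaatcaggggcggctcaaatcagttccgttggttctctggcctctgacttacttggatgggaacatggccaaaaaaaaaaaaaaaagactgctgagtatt
Cidec: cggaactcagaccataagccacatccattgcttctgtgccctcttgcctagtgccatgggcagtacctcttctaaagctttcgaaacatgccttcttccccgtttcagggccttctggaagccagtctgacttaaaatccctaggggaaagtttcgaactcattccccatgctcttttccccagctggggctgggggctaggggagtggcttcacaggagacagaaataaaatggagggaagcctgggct
Apoa4: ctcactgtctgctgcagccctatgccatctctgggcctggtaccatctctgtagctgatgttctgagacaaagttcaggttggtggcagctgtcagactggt
Plin2 and Cd36 each held 1 AGGTCA half-site, read as TGACCT, and 1 CCAAT box. The half-site lay 218 to 213 bases before the Plin2 start and 228 to 223 bases before the Cd36 start. Among all 32851 start regions searched over 250 bases, 14% held AGGTCA and 33.8% held CCAAT. Plin5 held 1 AGGTCA and 2 CCAAT, and Plin4 held 1 CCAAT. No member matched the repeat AGGNCANAGGNCA (0.338% of start regions), the hepatocyte nuclear factor 4 motif CAAAGNCCA (1.7%) or TATAAA (12.4%) in this window. Start regions, 10 in all, were found for 8 of the 9 members, with more than 1 for Cidec and for Plin5. The Plin5 matches all lay in chr17:56117549-56117798. The Apoa4 region searched, chr9:46240594-46240843, runs past the annotated Apoa4 start at 46240696. Only its bases before that start are shown, and the search does not cover 250 bases before it. These matches describe letters, not binding.

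Apoa4 was called higher in 7 of the 10 comparisons, more than any other member. It encodes apolipoprotein A-IV, which is carried on triglyceride-rich lipoproteins and high density lipoprotein and is made mainly in intestine, with hepatic expression that is known to follow liver triglyceride. In Mgmt-/- mice, Apoa4 was higher after NDMA at all 5 times, and in WT mice it was higher at day 1 and day 2. Values are read counts divided by the size factor of each library, set separately for each genotype, so levels are compared within a genotype only.

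At day 1, Apoa4 in Mgmt-/- livers was 14.9, 36.5 and 58.1 normalized counts (lowest, median and highest) after saline and 72.4, 234 and 411 after NDMA. All 12 NDMA livers were above all 12 saline livers. The difference was 2.58 ± 0.22 on the log2(value + 1) scale (SE, limma adjusted p = 2.2e-10), where 17.7% of 10055 genes tested were called. A gene was called when its Benjamini-Hochberg adjusted p was under 0.05 and its log2 difference was over 0.58 in size. The same separation was seen at day 2, when saline livers held 35.6, 44.0 and 79.2 and NDMA livers 162, 191 and 292 normalized counts. The day 2 difference was 2.01 ± 0.15 (adjusted p = 1.8e-10), with 19.9% of genes called. The widest gap came at day 5, with 28.8, 36.2 and 52.2 after saline against 149, 367 and 842 after NDMA. Again no NDMA liver overlapped with saline, and the difference reached 3.25 ± 0.30 (adjusted p = 1.2e-06), with 17.8% of genes called. The NDMA group lay entirely above saline for 0.776%, 6.19% and 6% of genes tested at these 3 collections.

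In adult Mgmt-/- mice the Apoa4 groups overlapped. At week 10 saline livers held 65.8, 87.4 and 194 normalized counts and NDMA livers 156, 317 and 637, and 7 of 8 NDMA livers were above the highest saline liver. The difference was 1.51 ± 0.26 (limma adjusted p = 0.00020), with 11.2% of genes called. At month 10 the values were 87.6, 225 and 496 after saline and 189.9, 421 and 1690 after NDMA. Only 5 of 13 NDMA livers exceeded the highest saline liver, 12 of 13 exceeded the saline median, and the difference was 1.16 ± 0.25 (adjusted p = 0.0027), with 7.74% of genes called.

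In WT mice at day 1, Apoa4 was 13.2, 24.4 and 118 normalized counts after saline and 26.8, 90.2 and 256 after NDMA. The groups overlapped in range, yet all 26 NDMA livers were above the saline median, and the difference was 1.65 ± 0.22 (limma adjusted p = 2.0e-07), with 9.19% of genes called. The WT day 1 livers came from 3 library batches, and the difference was 1.66 in batch 191212Eng and 2.14 in batch 210901Eng. In batch 200803Eng, with 6 NDMA and 4 saline livers, it was 0.61 and was not called (adjusted p = 1). Of these NDMA livers, replicates D209072 and D209077 held the lowest Apoa4, 26.8 and 33.95 normalized counts, against 90.3 to 126 in the others. Both are libraries whose sex transcripts went against the label. At day 2 the WT values were 11.1, 28.7 and 104 after saline against 55.6, 86.2 and 368 after NDMA, a difference of 1.58 ± 0.40 (adjusted p = 0.023), with 6.23% of genes called. The highest of these, 368, was the library of 150038 reads. WT males and females of day 2 were separate batches, and in females alone the difference was 1.75 with an adjusted p of 0.42.

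At later times no member passed the test in WT livers. Apoa4 was 18.4, 24.7 and 38.3 after saline and 23.9, 35.7 and 48.2 after NDMA at day 5, a difference of 0.36 ± 0.21 (limma adjusted p = 0.38), with 3.61% of genes called. The week 10 difference was 0.95 ± 0.28 (adjusted p = 0.91, unadjusted p = 0.0024), and all 8 NDMA livers were above the saline median. The month 10 difference was 1.22 ± 0.32 (adjusted p = 0.44, unadjusted p = 0.00074), and all 13 NDMA livers were above the saline median. Few genes of any kind passed in these adults, 0.0249% at week 10 and 0% at month 10, with 350 genes (4.35%) and 757 genes (8.18%) at an unadjusted p under 0.05. Among the members, Apoa4 alone had an unadjusted p under 0.05 at week 10, and Apoa4, Cd36, Cidea, Cidec, Plin2 and Plin5 had one at month 10. Saline means of Cidea and Cidec at month 10 were 0.317 and 4.04, under the mean of 5 required for testing. Both could be tested only through their NDMA livers (means 15.2 and 21.7), so this tally cannot be set against the 8.18% of all genes. edgeR and DESeq2 also called 0 members in WT livers at day 5, week 10 and month 10.

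**Figure D1:**
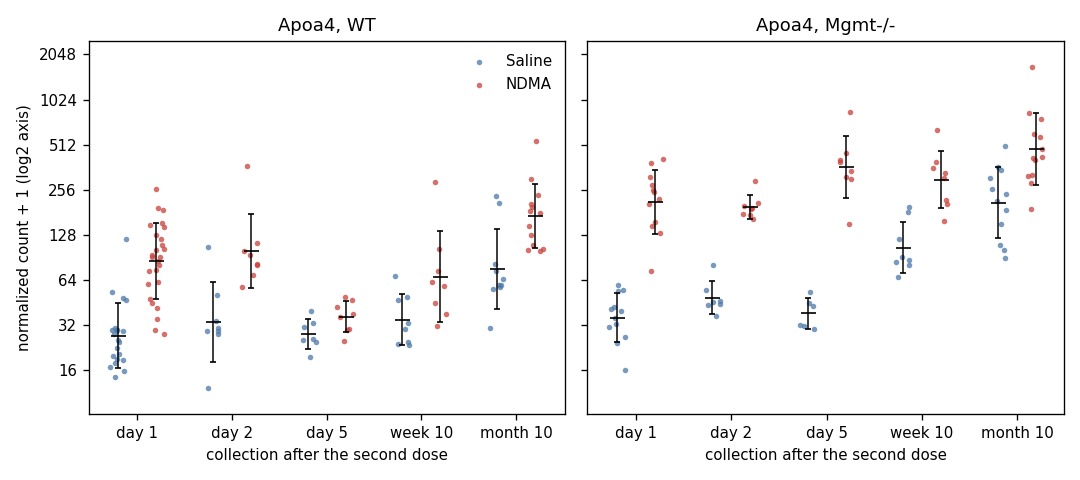
Apoa4 in every liver, as the normalized count plus 1 on a log2 axis, for WT and Mgmt-/- mice at each collection after the second dose; black bars give the mean and SD of the log2 values. Saline and NDMA livers of Mgmt-/- mice do not overlap at day 1, day 2 or day 5, and overlap at week 10 and month 10.

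Because Apoa4 is an intestinal gene, markers of small intestine were read beside it. Of 6 listed markers, 4 were in the tables, and only Fabp2, the intestinal fatty acid binding protein gene, was abundant enough to test. The summed level of the list in Mgmt-/- livers was 797 normalized counts after saline and 1348 after NDMA at day 1, 721 against 1477 the next day, and 472 against 1495 by day 5, almost all of it Fabp2. The sum was 659.8 and 654 at week 10, and 506 and 342 at month 10. In WT livers the sums were 698 and 842 at day 1, 483 and 959 the next day, and 389 and 902 by day 5, where Fabp2 was called higher on the last 2 of these days and Apoa4 was not called at day 5. In WT adults they were 532 and 515 at week 10, and 260.0 and 395 at month 10. Over the 94 Mgmt-/- livers, Vil1 had a median of 1.71 and a highest value of 9.63 normalized counts, Lgals4 had 2.85 and 28.9, and Rbp2 was at 0 in 73 of them. The part of these cells in the Apoa4 result was not tested. In bulk liver, a change in the number of cells of a type and a change in RNA per cell cannot be told apart.

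Plin2 encodes perilipin 2, the coat protein that marks lipid droplets in most cells and is stabilised by them. It rose in Mgmt-/- livers in the days after NDMA and no longer at the adult collections. At day 1 it was 149, 301 and 525 normalized counts after saline and 280.1, 533 and 1073 after NDMA. The groups overlapped in part, with 6 of 12 NDMA livers above the highest saline liver, and the difference was 0.88 ± 0.15 (limma adjusted p = 2.7e-05). Plin2 was not called at day 1 in batch 200803Eng alone, with 4 NDMA and 4 saline livers. At day 2 saline livers held 284, 453 and 671 and NDMA livers 580.0, 729 and 969.6, a difference of 0.73 ± 0.13 (adjusted p = 9.6e-05). The day 5 values were 394, 414 and 512 after saline and 496, 919 and 1371 after NDMA. At both times 7 of 8 NDMA livers were above every saline liver, and the day 5 difference was 0.99 ± 0.17 (adjusted p = 0.00017). At week 10 the difference was 0.50 ± 0.24 (adjusted p = 0.20), and at month 10 it was -0.46 ± 0.17 (adjusted p = 0.080), with 10 of 13 NDMA livers below the saline median.

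In WT mice Plin2 moved at day 1 only in part. The values were 118, 287 and 535 after saline and 139.9, 455 and 1712 after NDMA, and the difference of 0.55 ± 0.12 had an adjusted p of 0.00025 by limma but lay under the fold threshold. edgeR and DESeq2 gave 0.63 and called it. The level itself depended on the batch, with saline means of 258 in batch 191212Eng, 194 in batch 200803Eng and 422 in batch 210901Eng. At day 2, day 5 and week 10 the WT differences were -0.05, -0.22 and 0.0038, and at month 10 the difference was 0.38 ± 0.15 with an adjusted p of 0.55.

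Plin5 went the other way at the first collections. Perilipin 5 is abundant in oxidative tissues and links droplets to mitochondria. In Mgmt-/- livers at day 1 it was 33.5, 48.1 and 87.3 normalized counts after saline and 20.3, 28.8 and 45.1 after NDMA. All 12 NDMA livers were below the saline median, and 8 were below every saline liver. The difference was -0.67 ± 0.14 (limma adjusted p = 0.00028), and it was -0.48, under the fold threshold, when all libraries were scaled to the same total. Plin5 was also not called at day 1 in batch 200803Eng alone, with 4 NDMA and 4 saline livers. At day 2 the values were 25.7, 64.1 and 68.9 after saline and 21.9, 32.0 and 50.6 after NDMA, a difference of -0.79 ± 0.21 (adjusted p = 0.0071). From day 5 onward the Mgmt-/- differences were -0.11, 0.26 and 0.27, and none was called. In WT livers they ranged from -0.14 to 0.45, again without a call.

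Plin4, a perilipin best known from adipocytes and muscle, was close to the limit of detection. Its group means ran from 0.0753 to 7.07 normalized counts, and it did not reach the mean of 5 required for testing at any time in either genotype. The highest group was Mgmt-/- NDMA at month 10, with 2.90, 4.83 and 19.3 against 0, 1.84 and 11.3 after saline. All 13 NDMA livers were above the saline median. When the minimum level was removed, the difference was 1.36 and was called (adjusted p = 0.021).

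Cidec encodes the droplet fusion protein CIDEC, which enlarges droplets in adipocytes and in fatty liver. It was low in saline-treated young Mgmt-/- livers and was higher after NDMA at 4 of 5 times. At day 1 the saline values were 0, 1.59 and 5.31 normalized counts and the NDMA values 2.65, 13.6 and 39.5. All but 1 of the 12 NDMA livers were above the highest saline liver, and the difference was 2.48 ± 0.32 (limma adjusted p = 1.9e-07). At day 2 saline livers held 0, 1.15 and 6.17 and NDMA livers 9.04, 11.3 and 29.7, with no overlap and a difference of 2.87 ± 0.42 (adjusted p = 7.4e-06). The NDMA group was entirely above saline for 6.19% of genes tested at day 2. At day 5 only 4 reads were counted over the 6 saline livers, against 402 over the 8 NDMA livers. The day 5 values were 0, 0.411 and 0.943 after saline and 7.82, 35.3 and 65.1 after NDMA, a difference of 4.43 ± 0.39 (adjusted p = 4.2e-09).

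In adult Mgmt-/- livers Cidec was called at week 10 and not at month 10. At week 10 it was 0, 1.91 and 8.48 after saline and 2.36, 17.6 and 31.6 after NDMA, a difference of 2.19 ± 0.51 (limma adjusted p = 0.0050) with 5 of 8 NDMA livers above all saline livers. With a saline mean of 2.80, Cidec could again be tested only through its NDMA livers, and this call describes those livers only. At month 10 saline livers spread from 0 to 89.4 and NDMA livers from 0 to 113, and the difference of 1.05 ± 0.54 was not called (adjusted p = 0.23). In WT mice Cidec passed the level filter at month 10 only, where it was 0, 1.25 and 28.5 after saline and 0, 17.7 and 95.0 after NDMA. That difference was 1.70 ± 0.63 (adjusted p = 0.55). At day 1 the WT means were 0.671 ± 0.875 after saline (SD, n = 21) and 5.94 ± 5.49 after NDMA (n = 26). Without the level filter this WT day 1 difference was 1.71 and was called (adjusted p = 3.0e-05), and 15 of 26 NDMA livers were above every saline liver.

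Cidea, the relative of CIDEC known from brown fat and from fatty liver, was sparse. No read was counted in either group of WT livers at day 5, in WT saline livers at week 10 or in WT NDMA livers at day 2. At month 10 in WT mice, 9 of 10 saline livers were at 0 and 8 of 13 NDMA livers had at least 1 read, with a highest value of 77.5. The difference was 1.83 ± 0.56 (limma adjusted p = 0.47, unadjusted p = 0.0031), and in males alone it was 3.87 and was called (adjusted p = 0.015). With 1 read in all over the 10 saline livers, Cidea could be tested here only through its NDMA livers. The call in males therefore describes those livers only. In Mgmt-/- livers at month 10 the order of the means was opposite, 14.6 ± 31.7 after saline (SD, n = 12) and 3.54 ± 8.45 after NDMA (n = 13), and the difference of -0.58 ± 0.57 was not called (adjusted p = 0.57). These means rested on few livers. Saline males D209012 and D209013 held 79.05 and 85.5, the highest NDMA value was 30.9, and the median of both groups was 0. At day 1 all 12 Mgmt-/- NDMA livers had a read of Cidea and 10 of 12 saline livers had none. That difference was 1.21 and was called only without the level filter (adjusted p = 0.00060).

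Markers of adipocytes were read beside Cidec, Cidea and Plin4. Adipoq, the adiponectin gene, was at 0 in 85 of the 94 Mgmt-/- livers, Lep in 93 and Retn in 78, and none exceeded 2.80 normalized counts. Cfd, which encodes adipsin, was at 0 in 68 of them and had a highest value of 28.2. In the 117 WT livers Adipoq was at 0 in 108, Retn in 106 and Cfd in 87, with a highest Cfd of 58.9. Ucp1 was at 0 in 93 of the Mgmt-/- livers. Of the 7 white adipocyte markers, 2 were abundant enough to test, Car3, which hepatocytes also express and which led the list, and Fabp4. The log2 difference of Car3 in Mgmt-/- livers was -1.44, -1.78, -2.32 and -1.32 at the first 4 collections, all called. Fabp4 was higher at week 10 (1.19 ± 0.20) and month 10 (1.25 ± 0.25) and was not called before. Of the 5 brown adipocyte markers, Cox7a1 alone could be tested at day 1, day 2 and day 5, and was called higher at each. Their part in the results for Cidec, Cidea and Plin4 was not tested.

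Cd36 encodes the scavenger receptor and fatty acid transporter CD36, which hepatocytes, macrophages and endothelial cells all express. It was higher in the Mgmt-/- mice from day 2 to week 10, and at those 3 collections no NDMA liver overlapped with saline. At day 1 the values were 36.4, 61.7 and 104 normalized counts after saline and 40.7, 80.2 and 197 after NDMA, a difference of 0.54 ± 0.17 (limma adjusted p = 0.016) that lay under the fold threshold. When all libraries were scaled to the same total, the day 1 difference was called. At day 2 they were 51.6, 63.8 and 77.0 against 99.95, 143 and 203, a difference of 1.14 ± 0.14 (adjusted p = 7.6e-07). At day 5 they were 47.1, 72.3 and 97.9 against 147, 187 and 251, a difference of 1.47 ± 0.17 (adjusted p = 4.1e-07). A gap was also present in adults, with 39.2, 61.4 and 110.2 after saline at week 10 against 137, 209 and 218 after NDMA, a difference of 1.57 ± 0.18 (adjusted p = 1.6e-06). The NDMA group was entirely above saline for 6.19%, 6% and 2.4% of genes tested at day 2, day 5 and week 10. At month 10 the saline livers held 96.2, 172 and 219.9, the NDMA livers 115, 183 and 276, and the difference was 0.23 ± 0.14 (adjusted p = 0.34).

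Markers of macrophages, which also express Cd36, were read beside it. The 9 macrophage and Kupffer cell markers summed to 916 ± 187 normalized counts after saline and 2155 ± 980 after NDMA in Mgmt-/- livers of day 2. On day 5 the sums were 977 ± 135 and 1673 ± 255, and by week 10 they were 636 ± 215 and 1349.9 ± 185. The earliest and latest collections gave 1000.5 ± 403 against 1229.9 ± 857 (day 1) and 391 ± 293 against 713 ± 497 (month 10). Lyz2 was the most abundant of these markers in each Mgmt-/- group. All 9 could be tested in the young mice, where 3 were called higher and 3 lower at day 1, and 6 and then 5 were called higher at the next collections. In adults 3 of 8 were called higher at week 10 and 2 of 7 at month 10, when the Cd36 difference of 0.23 on the log2 scale was not called. Clec4f, which marks resident Kupffer cells, was lower at day 1 (-1.23 ± 0.23) and not called later. Across libraries, after removal of group means, Cd36 and the marker sum had a Pearson r of 0.496 in 117 WT livers and 0.38 in 94 Mgmt-/- livers, where both values of a liver share a size factor and a read depth. Their part in the Cd36 result was not tested.

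In WT mice Cd36 was called at no time. The day 1 difference was 0.55 ± 0.14 with a limma adjusted p of 0.0022, under the fold threshold, and edgeR (0.60) and DESeq2 (0.60) called it. At day 5 it was 0.48 ± 0.25 (adjusted p = 0.32), and without the NDMA library of fewest reads at that time (replicate D215014) it was 0.64 with an adjusted p of 0.038. The month 10 difference was 0.79 ± 0.29 (adjusted p = 0.55).

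**Figure D2:**
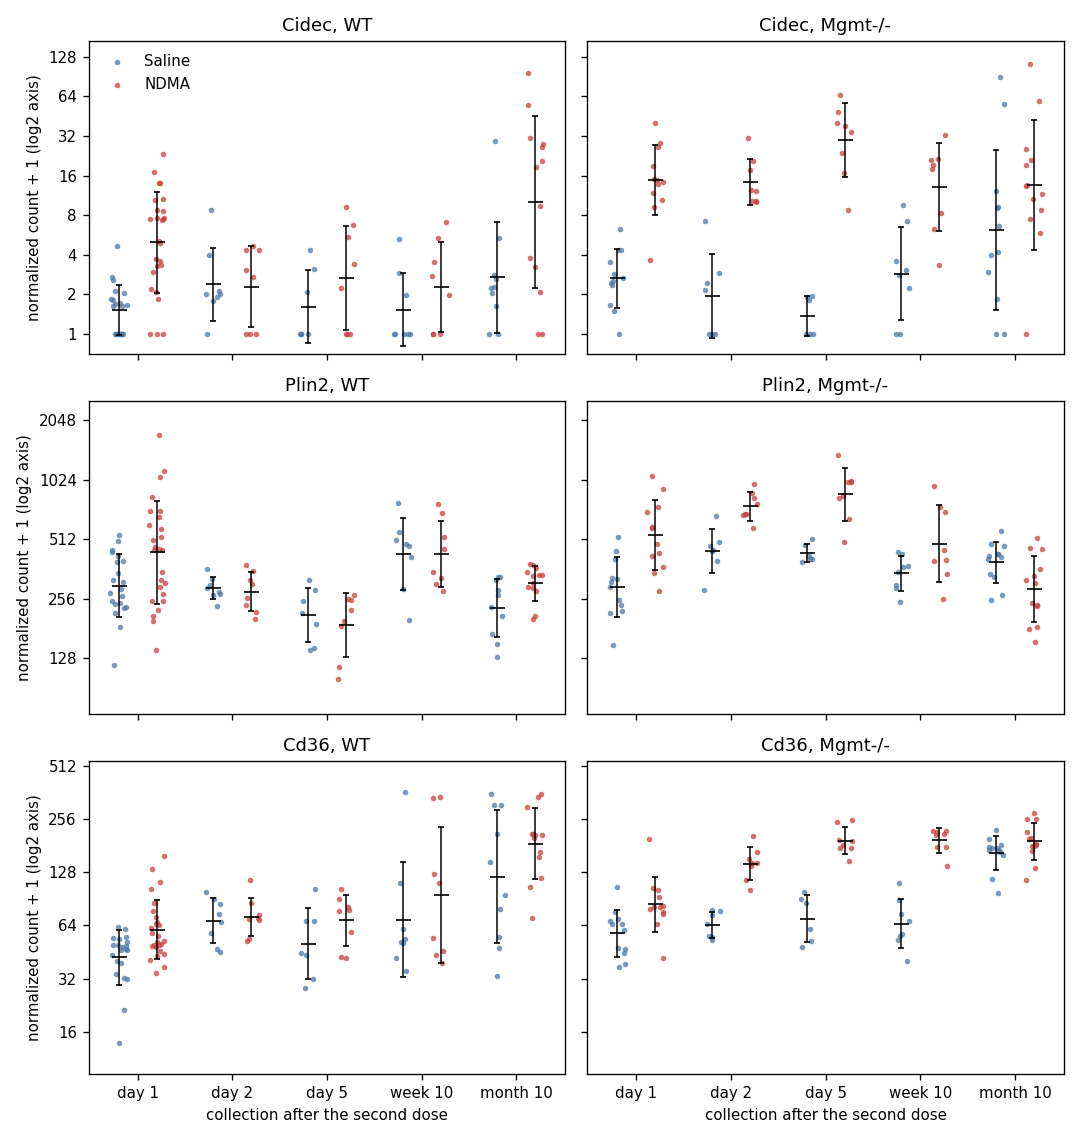
Cidec, Plin2 and Cd36 in every liver, as the normalized count plus 1 on a log2 axis, with WT mice in the left column and Mgmt-/- mice in the right; black bars give the mean and SD of the log2 values. In Mgmt-/- mice all 3 genes lie higher after NDMA at day 2 and day 5, and Cd36 does so at week 10 without overlap.

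Mogat1 encodes a monoacylglycerol acyltransferase that feeds triglyceride synthesis and is known to rise in fatty liver. In Mgmt-/- livers at week 10 it was 0, 0.866 and 4.53 normalized counts after saline and 2.36, 9.82 and 46.0 after NDMA. All but 1 of 8 NDMA livers were above the highest saline liver, and the difference was 2.51 ± 0.53 (limma adjusted p = 0.0021). The means were 1.75 after saline and 14.3 after NDMA, so Mogat1 reached the mean of 5 required for testing only through its NDMA livers. This call therefore describes those livers only. At day 5 the means were 0.599 ± 0.633 (SD, n = 6) and 7.03 ± 4.87 (n = 8), below the level filter, and without the filter the difference was 2.18 and was called (adjusted p = 0.00061). It was not called at month 10 in either genotype (-0.11 ± 0.44 in Mgmt-/- and 0.72 ± 0.50 in WT livers) or at week 10 in WT livers (0.09 ± 0.53).

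G0s2 encodes an inhibitor of adipose triglyceride lipase. It was lower in Mgmt-/- livers at month 10, where saline livers held 202, 433 and 812 normalized counts and NDMA livers 45.6, 188 and 616. Of 13 NDMA livers, 12 were below the saline median and 7 were below every saline liver. The difference was -1.28 ± 0.31 (limma adjusted p = 0.0069). At earlier times its Mgmt-/- differences ranged from -0.18 to 0.39 without a call. In WT livers the widest difference was -1.29 ± 0.74 at day 2 (adjusted p = 0.35), where the library of 150038 reads was at 0, and edgeR and DESeq2 gave -0.66 and -0.67 and called it.

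**Figure D3:**
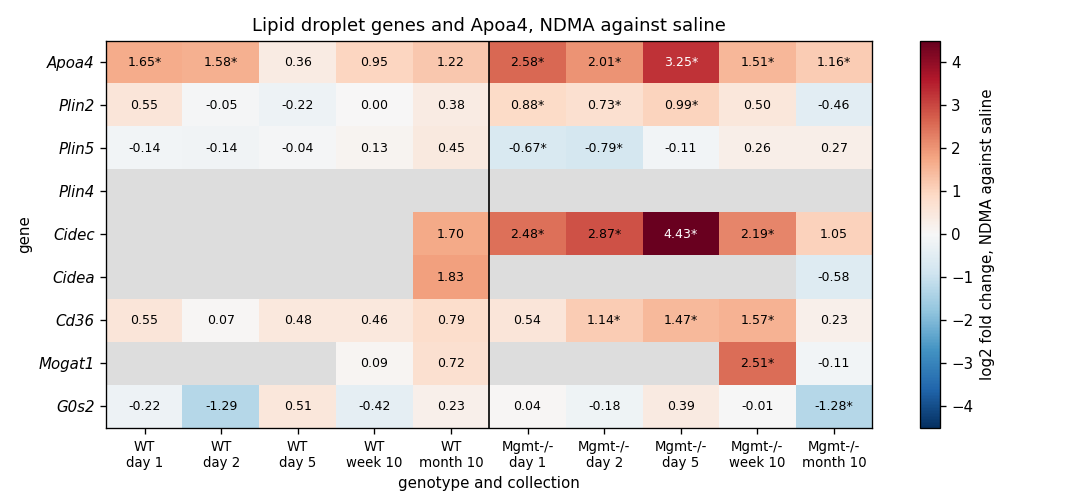
Log2 difference between NDMA and saline livers for the 9 genes (rows) at 5 times in each genotype (columns), on the log2(normalized count + 1) scale; a star marks a called difference and grey marks a gene below the level needed for testing. Called rises lie mainly in the Mgmt-/- columns for Apoa4, Cidec, Cd36 and Plin2, and called falls are Plin5 at day 1 and day 2 and G0s2 at month 10.

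By count, 6, 6, 6, 7 and 8 members could be tested in Mgmt-/- livers from day 1 to month 10, of which 3, 4, 4, 4 and 1 rose and 1, 1, 0, 0 and 1 fell. The share of all genes called higher at these times was 9.06%, 12.4%, 11.1%, 7.27% and 4.75%, and the share called lower was 8.64%, 7.5%, 6.71%, 3.88% and 2.99%. Cidec from day 1 to week 10 and Mogat1 at week 10 had saline means under the required mean of 5 and could be tested only through their high NDMA livers, so the counts of members that rose cannot be set against these shares. Among WT livers 1 of 5 testable members, Apoa4, rose at each of the first 2 collections, where 5.01% and 3.33% of genes were called higher and 4.19% and 2.91% lower. None of 5, 6 and 8 was called at the later times, with 2.22% of genes called higher and 1.39% lower at day 5. The genes had been chosen with earlier results of these data known, so these counts describe them.

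Whether the response differed between genotypes was tested directly, by edgeR on the whole reads recovered from the values of both genotypes. Apoa4 responded more in Mgmt-/- than in WT livers at day 5, by 3.00 ± 0.36 on the log2 scale (SE, adjusted p = 2.0e-06), where 2.51% of genes passed. Plin2 did so at day 2 (0.77 ± 0.19, adjusted p = 0.0074) and at day 5 (1.25 ± 0.25, adjusted p = 0.0015). Cd36 did so at day 2 (1.05 ± 0.21, adjusted p = 0.0010), where 7.98% of genes passed. At day 1 no member passed, and 0.26% of genes did. Apoa4 differed by 0.80 ± 0.37 (adjusted p = 0.40, unadjusted p = 0.035) and Plin5 by -0.61 ± 0.20 (adjusted p = 0.16, unadjusted p = 0.0039), the 2 members at an unadjusted p under 0.05.

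In adults the genotype terms of the members did not pass. At week 10, where 7.13% of genes passed, Cd36 differed by 1.20 ± 0.40 (edgeR adjusted p = 0.062) and was the only member at an unadjusted p under 0.05. At month 10, where 1.58% of genes passed, G0s2 differed by -1.50 ± 0.43 (adjusted p = 0.057) and Plin2 by -0.78 ± 0.24 (adjusted p = 0.084). Cidec differed by 2.69 ± 0.96 at day 2 (adjusted p = 0.076) and by 4.27 ± 1.47 at day 5 (adjusted p = 0.12), while limma on the normalized values called both, 2.93 (adjusted p = 0.0065) and 3.64 (adjusted p = 0.0033). Its mean was under 5 in both WT groups and in Mgmt-/- saline livers at these times. These Cidec terms therefore rest on the Mgmt-/- NDMA livers (means 14.5 and 33.7), and the limma calls describe those livers only. From day 2 to week 10 no library batch held both genotypes, so the genotype and the batch cannot be told apart there.

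**Figure D4:**
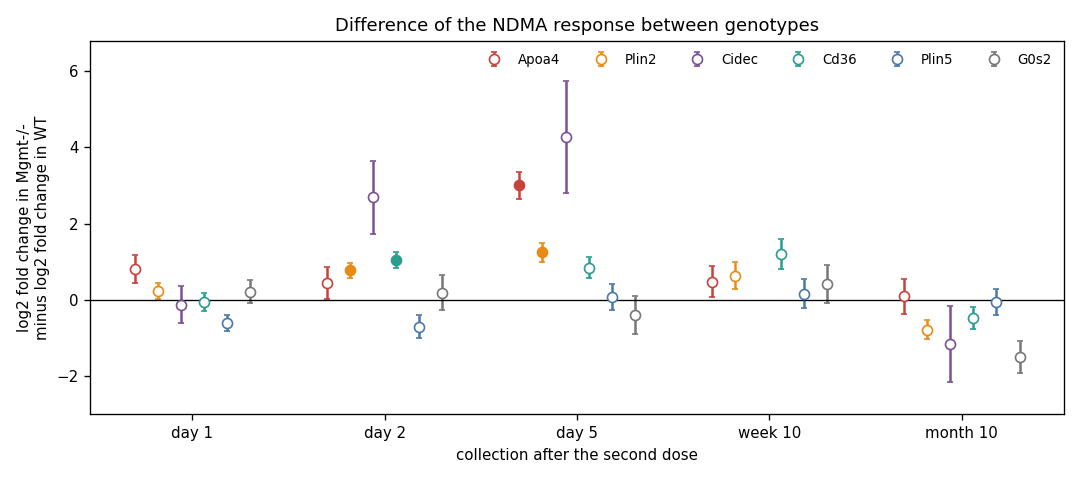
Difference between the Mgmt-/- and the WT response to NDMA, in log2 units with its SE, for the members tested at each collection after the second dose (6, and 5 at week 10, without Cidec); filled points have an adjusted p under 0.05. Filled points are Cd36 and Plin2 at day 2 and Apoa4 and Plin2 at day 5, all above 0.

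The saline livers show how the members varied without NDMA. In adult Mgmt-/- saline mice, all of 1 batch, Cidec was lower in females than in males by 2.40 ± 0.52 on the log2 scale (limma adjusted p = 0.0043), where 2.28% of genes were called higher and 1.93% lower in females. Its mean reached 5 only in the males of month 10 (34.3), so Cidec could be tested only through them. This call therefore cannot be set against these shares. At month 10 Cidec was 0, 1.93 and 5.62 normalized counts in 7 females, and 8.02, 11.1 and 89.4 in 5 males. At week 10 the means were 1.16 ± 1.36 in 4 females and 4.44 ± 3.52 in 4 males. Cidea was at 0 in all 7 females of month 10 and ran from 1.59 to 85.5 in the 5 males, while at week 10 it was 1.40 on average (0 to 5.60) in 4 females and 0 in all 4 males. Its difference over both ages was not called (-1.93 ± 0.74, adjusted p = 0.16). No other member was called. The response to NDMA did not pass a test of difference between the sexes for any of the 6 members tested, with Cd36 (-0.36 ± 0.15 in females minus males, adjusted p = 0.37) the closest, and 0.00991% and 0.0693% of genes called higher and lower.

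Age was compared in the batch that held saline Mgmt-/- mice of day 1 (n = 4), week 10 (n = 8) and month 10 (n = 12). Apoa4 was 25.6 ± 10.2 normalized counts at day 1, 112 ± 48.9 at week 10 and 237 ± 124 at month 10 (mean ± SD). Adults were higher than day 1 mice by 2.56 ± 0.34 on the log2 scale (limma adjusted p = 1.1e-06), where 13.6% of genes were called higher and 14.1% lower. All 20 adults were above all 4 young mice. The share of all genes that separated in this way was not counted, so this describes Apoa4 only. Cd36 was 49.3 ± 12.4, 67.4 ± 22.7 and 167 ± 32.7 at these ages, a difference of 1.06 ± 0.21 (adjusted p = 0.00020). Plin2 was higher in adults by 0.74 ± 0.19 (adjusted p = 0.0036), and without 1 of the 4 young mice (replicate D209090) by 0.49 (adjusted p = 0.066). Cidec, Cidea, Mogat1, G0s2 and Plin5 were not called, with differences from -0.76 to 0.68.

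Other genes of lipid handling were read as lists of 92 distinct genes. Of these, 79, 78, 78, 79 and 82 could be tested in Mgmt-/- livers, in time order, and 11, 11, 13, 8 and 6 rose while 22, 18, 11, 15 and 12 fell, or 13.9%, 14.1%, 16.7%, 10.1% and 7.32% of those tested rising and 27.8%, 23.1%, 14.1%, 19% and 14.6% falling. Over all genes 9.06%, 12.4%, 11.1%, 7.27% and 4.75% were called higher and 8.64%, 7.5%, 6.71%, 3.88% and 2.99% lower. In WT pups 6, 4 and 4 rose and 6, 8 and 5 fell of 78, 76 and 76 tested, beside 5.01%, 3.33% and 2.22% of all genes called higher and 4.19%, 2.91% and 1.39% lower. In WT adults 0 were called in either direction by limma. The median difference over these genes in Mgmt-/- livers was -0.11, -0.15, -0.06, -0.20 and -0.24, from day 1 to month 10.

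Among the genes of the droplet coat and assembly list, 2 or 3 of 13 rose at each time in Mgmt-/- livers, where 4.75% to 12.4% of all genes were called higher. Hsd17b13, a droplet-bound dehydrogenase of hepatocytes, rose at all 5 times, by 0.75, 1.29, 1.37, 0.91 and 1.18 from day 1 to month 10. Its level at day 5 went from 904, 1095 and 1439 normalized counts after saline to 2086, 2985 and 3820 after NDMA. Hilpda, whose product inhibits adipose triglyceride lipase, rose at day 1 (1.03 ± 0.19), day 5 (1.26 ± 0.32) and week 10 (1.57 ± 0.43). Fitm1, which promotes droplet formation, had called differences of -1.17, -2.01 and -1.18 in the first 3 collections.

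Of the triglyceride synthesis genes, 9 or 10 could be tested at each time in Mgmt-/- livers. In time order 0, 1, 1, 0 and 0 of them rose and 2, 2, 1, 2 and 2 fell, beside 8.64%, 7.5%, 6.71%, 3.88% and 2.99% of all genes called lower. Dgat2, which catalyses the last step of triglyceride synthesis, fell at all 5 times, by 0.65, 1.00, 0.68, 1.16 and 0.67 in time order. At week 10 it was 311, 373 and 626 normalized counts after saline and 145, 174 and 209 after NDMA.

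Of 9 or 10 lipolysis genes tested in Mgmt-/- livers, 3, 5, 3, 4 and 2 fell in time order, and 1 rose, at day 1. Over all genes 8.64%, 7.5%, 6.71%, 3.88% and 2.99% were called lower at these times. Ces1d, a carboxylesterase that hydrolyses stored triglyceride, fell at all 5 times, by 1.63, 1.75, 1.50, 1.46 and 0.90. At day 5 it was 1499, 1670 and 2052 normalized counts after saline and 389, 629 and 900 after NDMA. Lipc, the hepatic lipase gene, had called differences of -1.27, -1.24, -1.40 and -0.78 from day 1 to week 10. Mgll, which encodes monoglyceride lipase, fell at 4 times and Ces1f, another carboxylesterase, at 3.

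Of the fatty acid uptake, binding and activation genes, 12 or 13 could be tested at each time in Mgmt-/- livers. In time order 2, 2, 1, 2 and 2 of them rose, beside 9.06%, 12.4%, 11.1%, 7.27% and 4.75% of all genes, and 5, 4, 4, 4 and 3 fell, beside 8.64%, 7.5%, 6.71%, 3.88% and 2.99%. Fabp1, the liver fatty acid binding protein gene, had called differences of -0.63, -1.32, -1.54 and -1.21 from day 1 to week 10 in Mgmt-/- livers. Acsl1, a major acyl-CoA synthetase of liver, fell at all 5 times, by 0.84, 0.88, 1.21, 1.13 and 0.92. Fabp2 rose by 0.78, 1.13 and 1.67 in the first days and fell by 0.68 at month 10, and Acsl4, a synthetase that prefers arachidonate, rose at 3 times. Among 16 apolipoprotein and lipoprotein assembly genes, Apoc2, the activator of lipoprotein lipase, rose at all 5 times, by 1.13, 1.72, 1.47, 1.28 and 0.83, and 1 or 2 of the 16 rose at each time in Mgmt-/- livers. In the same livers 5, 3, 0, 0 and 1 fell in time order. Those that rose numbered 2, 1, 2, 1 and 2, beside 9.06%, 12.4%, 11.1%, 7.27% and 4.75% of all genes called higher. These counts of 1 or 2 genes lie near the shares except at month 10, where 2 of 16 is above 4.75%. Over all genes 8.64%, 7.5%, 6.71%, 3.88% and 2.99% were called lower.

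Of the regulators and PPAR targets, 20, 19, 19, 20 and 21 could be tested in Mgmt-/- livers, and 3, 5, 7, 2 and 0 rose and 7, 4, 3, 6 and 4 fell in time order. The shares of all genes called higher at these times were 9.06%, 12.4%, 11.1%, 7.27% and 4.75%, and those called lower 8.64%, 7.5%, 6.71%, 3.88% and 2.99%. Srebf1, the master regulator of fatty acid synthesis genes, fell at all 5 times, by 1.03, 0.94, 0.96, 2.05 and 0.87. Fgf21, a fasting and stress hormone induced by PPARα, rose at day 1 (1.69 ± 0.38), day 2 (0.99 ± 0.31), day 5 (2.58 ± 0.35) and week 10 (2.30 ± 0.50). Vnn1, a pantetheinase, rose by 2.06, 1.72 and 1.98 at day 1, day 2 and day 5, and Acot1, an acyl-CoA thioesterase, by 1.52, 2.26 and 2.13. Neither was called in adults. The Mgmt-/- response exceeded that of WT livers by edgeR for Vnn1 at day 2 (1.49 ± 0.22) and day 5 (1.59 ± 0.29), and for Hsd17b13 at day 2 (0.92 ± 0.22), day 5 (0.86 ± 0.25) and week 10 (0.95 ± 0.28). It was more negative for Srebf1 at week 10 (-2.18 ± 0.43) and for Dgat2 at day 2 (-0.70 ± 0.17), day 5 (-0.75 ± 0.22) and week 10 (-1.22 ± 0.23).

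**Figure D5:**
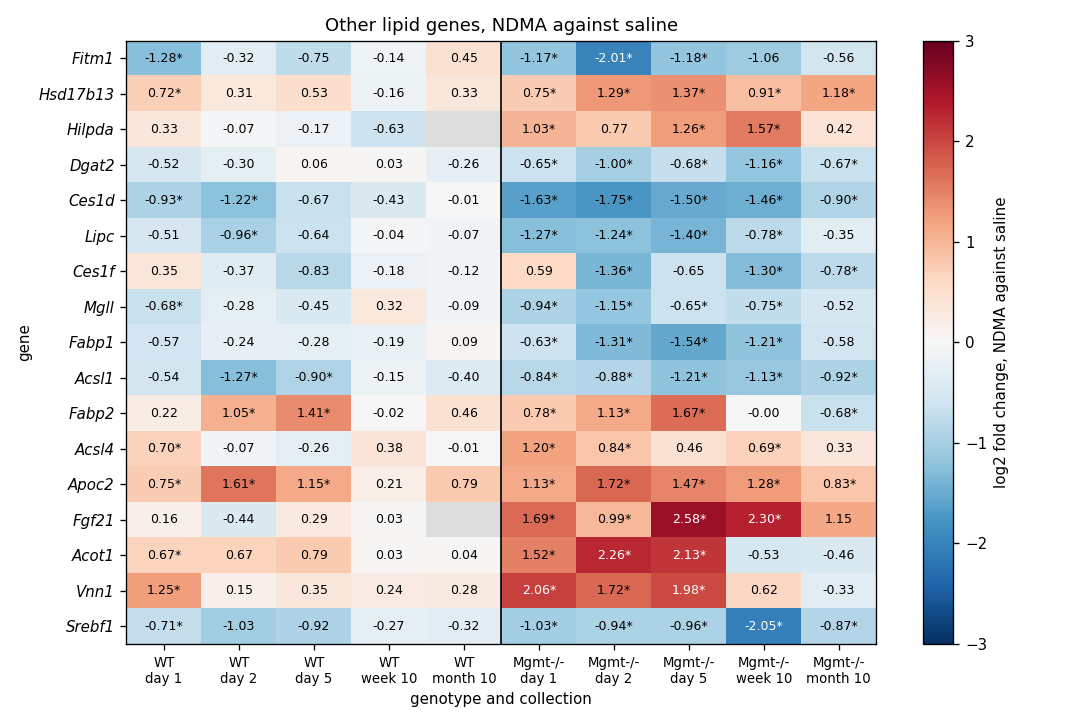
Log2 difference between NDMA and saline livers for 17 other genes of lipid handling (rows) at 5 times in each genotype (columns), on the log2(normalized count + 1) scale; a star marks a called difference. In Mgmt-/- mice Hsd17b13 and Apoc2 are called higher and Dgat2, Ces1d, Acsl1 and Srebf1 lower at all 5 times.

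Hepatocyte markers were read in the same libraries. Of the 5 listed, 3, 3, 1, 1 and 0 were called lower in Mgmt-/- livers from day 1 to month 10, and 1, Apoa1, was called higher at month 10 (0.58 ± 0.19). Alb had differences of -0.82 and -0.69 at the first 2 collections. The part of this in the lists above was not tested.

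After group means were removed, members varied together only loosely from liver to liver. Cidec and Cidea were the closest pair, with a Pearson r of 0.564 over 117 WT livers and 0.573 over 94 Mgmt-/- livers, followed by Cidea and Mogat1 (0.427 and 0.431). Apoa4 and Cidec had 0.365 and 0.342, and Plin2 and Cidec 0.0885 and 0.474. Among the genes compared (4922), those most like Plin2 were Acsl5 (0.755 in WT and 0.562 in Mgmt-/- livers), Clu (0.737 and 0.57) and Decr1 (0.656 and 0.646). The genes most like Cd36 were Cyp4a10 (0.687 and 0.468), Slc16a7 (0.653 and 0.411) and Vcam1 (0.641 and 0.41). For Apoa4 the nearest were Abcb4 (0.448 and 0.332), Vnn1 (0.391 and 0.361) and Glrx3 (0.469 and 0.264), and for Cidec they were Lgals1 (0.378 and 0.589), Cyp4a12a (0.35 and 0.47) and S100a11 (0.358 and 0.415). These values describe libraries that share normalization and depth.

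When the 2 Mgmt-/- saline libraries with kidney transcripts and little hepatocyte RNA were kept at day 5, the same 4 members were called, with differences of 4.37 for Apoa4, 1.65 for Plin2, 4.55 for Cidec and 1.61 for Cd36.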

How the data were processed

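Polyadenylated RNA of liver was sequenced by 3′ digital gene expression with barcoded primers that carry molecular identifiers. The authors aligned reads with STAR to GRCm38 (mm10), counted genes with ESAT and divided each library by a DESeq2 size factor, separately for WT and Mgmt-/- mice. Versions and the gene annotation are not given in the sources used here. The deposited values are therefore normalized counts (a signal per gene), so WT and Mgmt-/- levels cannot be set side by side. Each value was a whole multiple, within 0.02, of the value of 1 read in all 213 libraries, which gave back whole reads and depths of 150038 to 7740710 reads. Of 214 labelled samples, 1 Mgmt-/- saline male of month 10 was not analysed here, and 0 columns were left unmapped.

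NDMA was compared with saline within each genotype and time by limma 3.58.1 (trend, robust; R 4.3.3) on log2(value + 1) for genes with a mean of at least 5, with sex and batch as terms where they could be separated. The study's thresholds were used, a Benjamini-Hochberg adjusted p under 0.05 over all genes and a log2 difference over 0.58 in size. Fold changes on this scale understate the change of low genes. Mgmt-/- saline libraries of day 5 with Kap over 1000 normalized counts were left out. Genotype by treatment was tested on the recovered reads by the quasi-likelihood test of edgeR 4.0.16 with TMM. DESeq2 1.42.0, other filters, pseudocounts, scalings and single batches were tried as alternatives, and the fits for batch 200803Eng and for single sexes were added after the data were seen. The study assigned litters to saline or NDMA at birth, and nothing in the labels says which mice shared a litter. Without such labels an effect of treatment and one of litter cannot be told apart, and p-values measure the spread between these livers. Tables and figures were made with pandas 2.3.3 and matplotlib 3.10.9.

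The members and gene lists were chosen with earlier results of these data known, so calls of the members are not independent support. All 9 members are named. Of the lists, a gene is named where Mgmt-/- livers gave it 3 or more calls of 1 direction, up to 4 per list by mean size of change. The 3 genes most like a member had the highest mean, over both genotypes, of the correlation after removal of group means. Lists of skeletal muscle, pancreatic, kidney and endothelial markers were also read. In Mgmt-/- livers kidney markers were too low to test at any time, at most 2 muscle markers and 1 pancreatic marker could be tested, and the muscle marker Acta1 was called higher at day 5. Of 7 endothelial markers, 4 were called lower at day 1, 1 higher and 1 lower at day 2, and 1 higher and 3 lower at day 5.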

Additional observations from a re-analysis of the deposited data

Results flagged for a closer look

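In 78 combinations of a member and a group of 4 to 10 mice, 7 values (8.97%) stood apart from the rest of their group by Dixon's criterion, which chance meets in about 1 in 20 groups. Both of the WT NDMA values of day 2 came from replicate D215006, the library of 150038 reads. Its Apoa4 was 368 normalized counts against 55.6 to 112 in the other 7 livers, and its G0s2 was 0 against 49.4 to 155. In WT saline livers of month 10, replicate D202025, a male, had Cidec at 28.5 (0 to 4.36 in the others) and Cidea at 3.17 (0 in the others). That Cidea value is 1 read in a library of 462404 reads, so it carries no more than the presence of that read. In Mgmt-/- NDMA livers, Apoa4 of replicate D389065 was 292 at day 2 (162 to 206 in the others), Cd36 of replicate D209005 was 137 at week 10 (176 to 218), and G0s2 of replicate D209006 was 63.5 at week 10 (212 to 456).

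The response to NDMA differed between genotypes by the edgeR interaction term for Cd36 at day 2 (1.05), Plin2 at day 2 (0.77), Apoa4 at day 5 (3.00) and Plin2 at day 5 (1.25), all in log2 units with the larger response in Mgmt-/- livers.

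The 2 saline libraries with kidney transcripts, labelled liver and left out of the comparisons, had hepatocyte marker sums of 2349.5 and 1596 normalized counts against at least 316858 in the 6 kept livers of their group, so their values for members are not read as those of liver. Mogat1 was 45.8 normalized counts in replicate D389011 and 43.0 in replicate D389017, against at most 1.70, and Plin4 was 2.18 in replicate D389017, against at most 0.822. Both lay below every kept liver for Apoa4 (0.352 and 1.09 against at least 28.8), Plin5 (2.82 and 1.63 against at least 35.5) and Plin2 (78.5 and 62.1 against at least 394), and replicate D389017 also for Cd36 (43.6 against at least 47.1).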

How the results depend on the processing

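Of 1275 values of single members under other settings, 1249 kept their side of the threshold, of which 51, called in neither fit, had the other sign. Another 20 passed it newly and 6 no longer passed, and 0 changed sign among called values. Of the counts of members called, 195 stayed within 1.5 times the main count and 19 did not. In WT livers the count of 1 at day 1 became 2 with no filter and 2 without the libraries whose sex genes went against the label. It became 3 with all totals set equal, with edgeR, with DESeq2 and in batch 210901Eng, as Plin2 and Cd36 crossed the fold threshold, and 0 in batch 200803Eng. At day 2 the count of 1 became 2 with edgeR, DESeq2 and males only, where G0s2 was called lower, and 0 in females only. At day 5 the count of 0 became 1 without libraries under 300000 reads and in males only, and at month 10 it became 1 in males only. The member called in males at month 10 was Cidea, which had 1 read over all 10 saline livers. In Mgmt-/- livers the count of 4 at day 1 became 2 in batch 200803Eng, where Plin2 and Plin5 were not called. The count of 4 at week 10 became 2 with a mean of at least 20, since fewer members were tested. The genotype term at month 10 went from 0 to 1 member with limma (Plin2, -0.85), and the difference between the sexes from 1 to 0 with a mean of at least 20. Leaving out 1 mouse at a time gave counts from 1 to 1 in WT livers at day 2, 0 to 1 at day 5 and 0 to 0 at week 10, from 5 to 5, 4 to 4 and 4 to 4 in Mgmt-/- livers at those times, and from 2 to 3 for adults against day 1. The cause of these shifts was not tested unless stated. No paired analysis was possible because each mouse carries its own identifier and no number is shared between groups. Depth limits Plin4 and Cidea most, with fewer than 10 reads in all in 7 and 9 of their 10 saline groups, and Cidec and Mogat1 less, in 3 and 2.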
